A study of Homo sapiens with 4 samples.

Results

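HCT116 is an established human colorectal cancer cell line, and the cells described here are those of its drug-treated library whose counts came to more than 25% from the mitochondrial genome. They numbered 1086 of the 4327 cells of that library, or 25.1% (exact Clopper-Pearson 95% interval 23.8 to 26.4%), in a data set of 15289 cells. The mitochondrial share of a cell was the sum over the gene names beginning MT- divided by all gene and transposable element (TE) counts of the cell. The other 3241 cells of the same library, at or below 25%, were the comparison.

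The study profiled 2 cell lines, HCT116 and the non-small cell lung cancer line H1299, each with DMSO or with 2 drugs, by droplet single-cell RNA sequencing with 5′ chemistry, 1 library per condition. Treated cells had 500 nM DAC (decitabine, an inhibitor of DNA methyltransferases) for 72 h and 500 nM SB939 (an inhibitor of histone deacetylases) for 18 h, and the control cells of each line had DMSO. With 1 library per condition there is no replicate, cells are not replicates, and no difference below was tested. Intervals on ratios are exact conditional 95% intervals that cover counting error only, and they do not speak to how another culture would behave.

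A mammalian mitochondrion carries its own circular genome, which is transcribed from both strands into long precursors. The heavy-strand promoters give both ribosomal RNAs, most transfer RNAs and all protein-coding messages except MT-ND6, which is read from the other strand. The rest of the respiratory chain, the mitochondrial ribosome and the transcription factors of this genome are encoded in the nucleus. In single-cell data a high mitochondrial share is widely used to set cells aside as stressed, damaged or dying, because cytoplasmic RNA can leave a leaky cell while mitochondria stay.

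The mitochondrial shares of the selected cells ran from 25.01 to 66.1% with a median of 30.2%, against a median of 16.4% in the other cells. The cut did not fall in a gap, as 155 cells lay between 24 and 25% and 101 cells between 25 and 26%. With the same cut, 364 of 3658 HCT116 DMSO cells (9.95%, 8.999 to 10.97%), 88 of 3726 treated H1299 cells and 91 of 3578 H1299 DMSO cells were above 25%. Library totals were 38927267 counts in treated HCT116, 62639099 in HCT116 DMSO, and 62428673 and 64524196 in treated and DMSO H1299. Of the barcodes of the treated HCT116 library, 71 also occurred in another library, 17 of them among the selected cells.

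The 2 genes proposed as markers of these cells, MT-CO1 and MT-ND4, were part of the selection and are given as a description. MT-CO1, a catalytic subunit of cytochrome c oxidase, made up 1.63% of all counts in the selected cells and 1.01% in the others. Per cell, however, MT-CO1 was not more abundant: the mean was 89.4 counts in the selected cells and 102.8 in the others. MT-ND4, a subunit of complex I, had no name of its own and appeared joined to its neighbour as MT-ND4_MT-ND4L, with 218 counts in the selected cells and 894 in the others. The neighbour MT-ND4L had 4227 and 19219 counts under its own name. Joined to MT-TR it had 52721 and 216057, or 48.5 and 66.7 per cell. The sources used here do not say how reads were assigned to such names. The 218 and 894 counts are thus no measure of the level of MT-ND4. Markers of both lines were checked as well. All 10 HCT116 and epithelial line markers had counts in the selected cells, and the 4 with at least 500 counts (KRT18, KRT19, KRT8 and EPCAM) were at 0.13 to 0.36 on the log2 scale relative to the other cells. The 10 markers listed for H1299 summed to 459 CPM (counts scaled to 1e+06 nuclear gene counts) in the selected cells and 444 in the others, led by VIM at 333 and 350 CPM. The 3 of them with at least 500 counts ranged from -0.07 for VIM to 0.79, with a median of 0.33. Of these 3, 1 was at least 1.5-fold higher, beside 11.5% of all genes.

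The selected cells held far fewer nuclear counts rather than more mitochondrial ones. Nuclear gene counts had a median of 2588.5 per cell (quartiles 2019 and 4123), against 7641 (5228 and 10167) in the other cells, a ratio of 0.339. Mitochondrial counts had a median of 1329.5 per cell against 1554, a ratio of 0.856, and means of 1704 and 1619. Among cells of like nuclear count the order was the reverse, as a cut on the share makes it: medians were 903 against 608 up to 2000 nuclear counts, 1135 against 735 at 2000 to 3000, 1784.5 against 1067 at 3000 to 5000 and 2920 against 1575 at 5000 to 10000. In the HCT116 DMSO library the cells above 25% looked different: their nuclear counts were 0.856 times those of the other cells (11657 and 13612.5) and their mitochondrial counts 2.12 times (5277 and 2488). In H1299 the ratios were 0.594 for nuclear and 3.06 for mitochondrial counts under treatment, and 0.787 and 3.84 under DMSO. Because the nuclear count is the larger part of the denominator of the share, these are descriptions of what the cut selected. The gap in depth ran through every comparison below: 640 of the 1086 cells (58.9%) had under 3000 nuclear counts, against 229 of the 3241 others (7.07%). Its part in the results was not tested. Values among cells of like depth are given for the main ones.

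**Figure D1:**
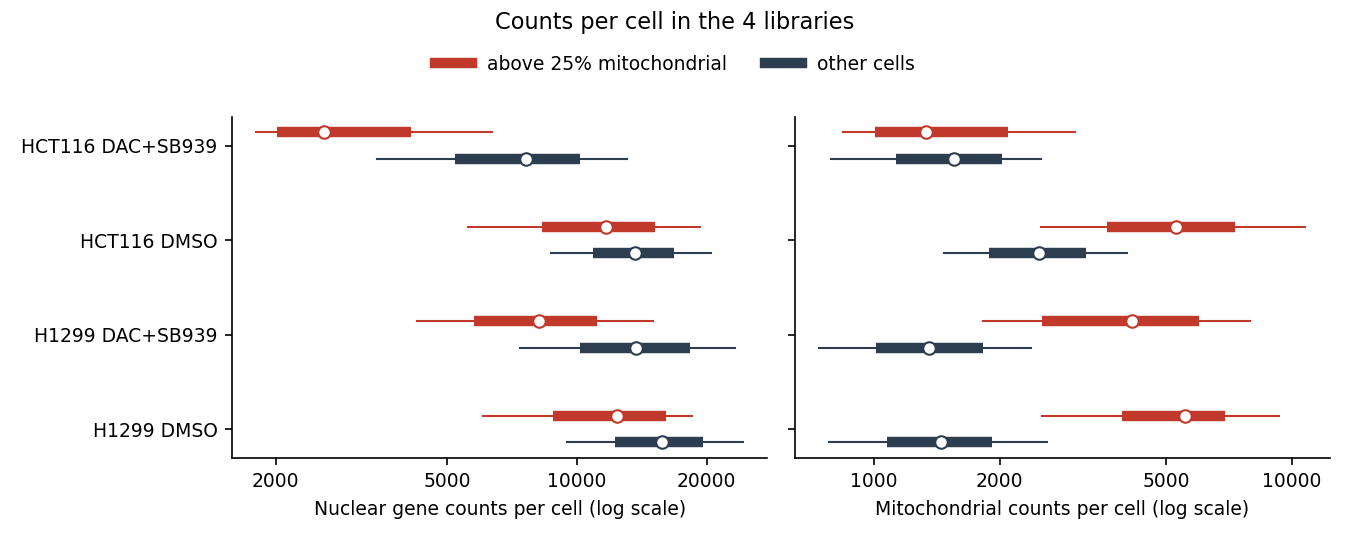
Nuclear gene counts per cell (left) and mitochondrial counts per cell (right), both on log axes, for cells above 25% mitochondrial counts and other cells of each of the 4 libraries; circles are medians, thick bars run between the quartiles and thin lines from the 10th to the 90th percentile. In treated HCT116 the nuclear medians are far apart (2588.5 and 7641) and the mitochondrial medians close together (1329.5 and 1554), while in HCT116 DMSO the mitochondrial medians are apart (5277 and 2488).

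Within the mitochondrial counts, the selected cells carried more ribosomal RNA and less of most messages. The ribosomal RNA names MT-RNR1 and MT-RNR2, with the transfer RNAs joined to them, were 67.5% of mitochondrial counts in the selected cells and 51.1% in the others. The heavy-strand messages were 31.0 and 47.9%, and MT-ND6 1.505 and 0.9497%. Per cell, the mean ribosomal RNA count was 1149.5 against 827.2, 1.39 times as many. The mean heavy-strand message count was 528.2 against 776.3, a ratio of 0.680. MT-ND6, the complex I subunit of the light strand, was at 25.6 against 15.4 counts, a ratio of 1.67. Total mitochondrial RNA per cell was thus nearly level while its make-up was not.

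The heavy-strand messages did not all shift alike. Relative to all mitochondrial counts, MT-CO2, the subunit of cytochrome c oxidase that binds cytochrome c, was at -1.02 on the log2 scale, and MT-CYB, of complex III, at -0.72. Of the complex I subunits, MT-ND3 was at -0.92, MT-ND1 at -0.86 and MT-ND2 at -0.77. MT-ATP8, of the ATP synthase, was at -0.76. MT-CO1 stood nearer to its share in the other cells at -0.27, and MT-ND5 at -0.09. Of the heavy-strand messages under their own names these 2 were the nearest to level. Joined to a transfer RNA, with more counts than alone, MT-ND3 was at -0.85, MT-CO2 at -0.80, MT-ND1 at -0.49 and MT-ATP8 at -0.46. MT-ND5 joined to its transfer RNAs was at 0.07. MT-ND6 was at 0.80 under its own name and at 0.62 where joined to MT-TE.

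The excess of ribosomal RNA was carried by names joined to a transfer RNA. MT-RNR2_MT-TV, which joins the large ribosomal RNA with the transfer RNA before it, was at 0.55 and MT-RNR1_MT-TF at 0.45 on the log2 scale within mitochondrial counts, whereas MT-RNR1 and MT-RNR2 alone were both at -0.02. The sources used here do not say how reads were assigned to joined names. In the HCT116 DMSO cells above 25%, ribosomal RNA was 4989 counts per cell against 1589, a ratio of 3.14. Heavy-strand messages there were nearly level at 999.8 and 1041, and MT-ND6 was level at 23.7 and 22.7. The corresponding ratios for ribosomal RNA in H1299 were 4.59 under treatment and 5.63 under DMSO. Ribosomal RNA was therefore the class with the highest mean ratio in these 3 libraries, but not in treated HCT116, where over all cells MT-ND6 was at 1.67 and ribosomal RNA at 1.39. Among treated cells of like depth that order did not hold, as given next.

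Across the whole range of mitochondrial share, the 3 classes followed different courses in treated HCT116. Mean ribosomal RNA counts went from 489.9 per cell below 10% mitochondrial share to 979.9 at 25 to 30% and 2368 above 40%. Heavy-strand message counts were highest at 15 to 20%, with 842 per cell, and were 543.5 at 25 to 30%. MT-ND6 counts peaked at 25 to 30% with 32.4 per cell, from 6.86 below 10%, and were 11.2 above 40%. Median nuclear counts went down from 10148 to 2962 between the lowest bin and the 25 to 30% bin, and were 2707 in the 55 cells above 40%. Among cells of like depth the selected cells held more of both main classes. A cut on the share raises total mitochondrial counts among such cells, so this order follows largely from the selection. At 2000 to 3000 nuclear counts, ribosomal RNA was 824.9 against 417.3 per cell and heavy-strand messages 392.3 against 276. At 5000 to 10000 ribosomal RNA was 2203 against 821 per cell. MT-ND6 was at 33.7 against 27.9 per cell up to 2000 nuclear counts, 26.6 against 27.7 at 2000 to 3000, 20.7 against 21.1 at 3000 to 5000 and 19.7 against 12.4 at 5000 to 10000. Its excess over all cells was thus not seen in the middle strata. In all 4 strata its share of mitochondrial counts was lower in the selected cells (3.55 against 4.92%, 2.13 against 3.84%, 1.06 against 2.001% and 0.622 against 0.768%). These shares are of mitochondrial totals that the cut made higher among cells of like depth.

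**Figure D2:**
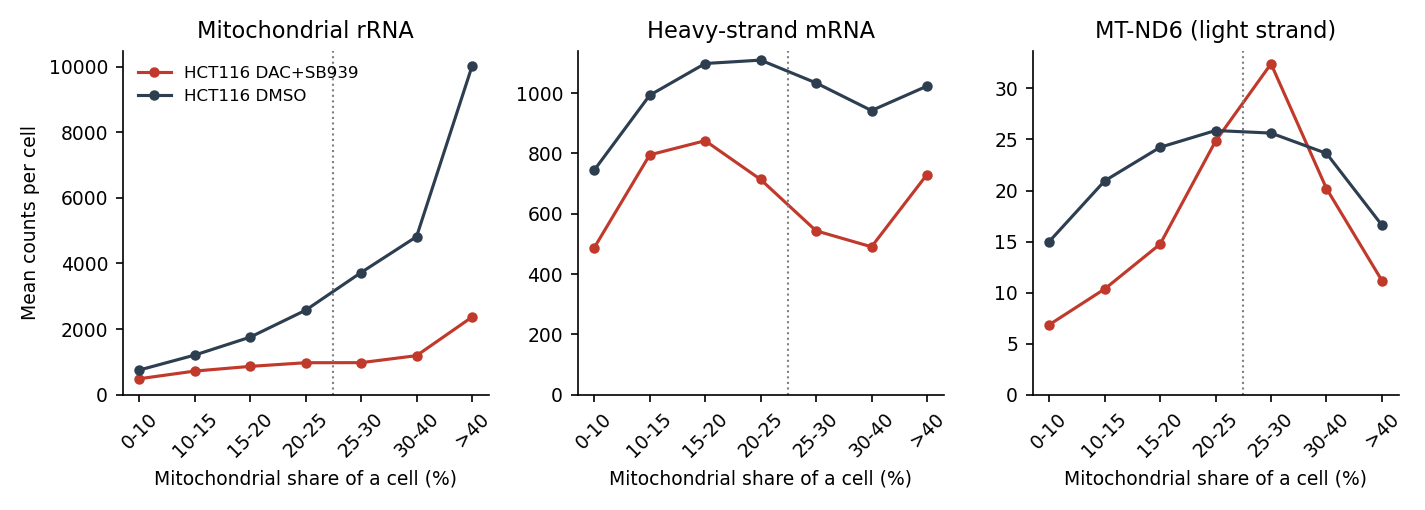
Mean mitochondrial counts per cell by class (ribosomal RNA, heavy-strand messages, MT-ND6) in bins of mitochondrial share for treated and DMSO HCT116, with the 25% cut as a dotted vertical line. In treated cells heavy-strand messages peak at 842 per cell in the 15 to 20% bin and MT-ND6 at 32.4 in the 25 to 30% bin, while ribosomal RNA reaches 2368 above 40%.

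For nuclear genes, counts were summed over each set of cells and divided by its nuclear gene counts (3725096 in the selected cells and 25936755 in the others). Genes with 1 name and at least 500 counts over both sets were compared, and a gene was called at a ratio of 1.5 or more either way. Of 6521 genes, 753 (11.5%) were at least 1.5-fold higher in the selected cells and 57 (0.874%) at least 1.5-fold lower. At 2-fold the counts were 100 (1.53%) higher and 2 (0.0307%) lower. The median gene stood at 0.13 on the log2 scale and 4146 genes (63.6%) were above 0, so list medians below are to be read against 0.13 and not against 0. In the 4 strata of depth up to 10000 nuclear counts the median of all genes was 0.13, 0.17, 0.075 and 0.073. List medians by depth are to be read against these values. Of the called genes 92.96% were higher, and 68.9% when the sets were scaled by the median of the gene ratios, which gave 406 higher and 183 lower. In HCT116 DMSO the same comparison called 295 of 8712 genes (3.39%) higher and 8 (0.0918%) lower. Below, the number of genes given for a list is that with at least 500 counts, out of those with a row in the tables, and its called members are to be read against 11.5% of all genes higher and 0.874% lower.

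The counts of calls were far smaller among cells of like depth, where far fewer genes had enough counts to be compared. When only cells between 2019 and 4123 nuclear counts were kept (544 selected and 452 others), 692 genes had enough counts, and 20 were higher and 2 lower. Of the 753 higher genes, 711 were above 0 among those cells and 382 were past 1.5-fold, with a median of 0.59. Of the 57 lower genes, 55 were below 0 and 18 past 1.5-fold. These genes were called with the same cells included, so their direction here is no independent check. With each cell thinned to 1800 nuclear counts, the selected cells had a median of 1009 genes per cell and the others 956 (983 and 3229 cells used, 103 and 12 left out), against 1289 and 2584 without thinning. The median log2 value of the 2011 genes with at least 500 counts was -0.0063 in thinned cells. Over all cells without thinning, the 1911 genes with at least 2000 counts had a median of -0.050, with 108 higher and 15 lower. The settings thus differ in the genes compared as well as in depth, and these were not told apart.

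Linker and replication-dependent histone genes were among the genes with the highest ratios in the selected cells. Histones are the proteins that package DNA. The replication-dependent genes, whose names begin HIST in these files, mostly lie in clusters on chromosome 6, and their messages classically end in a conserved stem-loop in place of a poly(A) tail. That stem-loop is shown here for the 6 genes with at least 500 counts in which it was found, because it is the sequence that marks this class of message. It was searched for by the histone 3′ stem-loop consensus, on the sense strand only, with both 6-base arms reverse complementary, in the last 100 bases of GENCODE v29 transcripts (GRCh38). The capitals mark the arms, and the genes are in order of their log2 value in the selected cells.
HIST1H2AI: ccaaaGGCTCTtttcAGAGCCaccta
HIST1H2AE: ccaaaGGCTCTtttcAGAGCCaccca
HIST3H3: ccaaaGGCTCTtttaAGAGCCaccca
HIST1H2BN: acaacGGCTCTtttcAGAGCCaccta
HIST1H4H: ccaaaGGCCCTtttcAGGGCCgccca
HIST1H2BD: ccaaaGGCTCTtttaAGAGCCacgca

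HIST1H2AI, a gene for histone H2A, was at 88.9 CPM in the selected cells and 21.6 CPM in the others, 2.04 on the log2 scale. HIST1H2AE was at 0.79, HIST3H3 at 0.66, HIST1H2BN at 0.65, HIST1H4H at 0.57 and HIST1H2BD at 0.23. Thus 4 of the 6 were at least 1.5-fold higher, beside 11.5% of all genes, with a median of 0.66. The stem-loop was found in 30 of all 206694 transcripts of the annotation (0.0145%). Of the 22 HIST genes in which the search found none, 14 were higher, with a median of 1.07. Finding none says only that these letters are not in the window of the annotated models.

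HIST1H1E, which encodes linker histone H1.4, had the highest ratio of all genes with at least 2000 counts and no clone name. The gene lies on chromosome 6 at positions 26156354 to 26157107 on the plus strand and has 1 exon. It was at 1039 CPM in the selected cells and 230 CPM in the others, 2.17 on the log2 scale (2.12 to 2.23). Its level differed by mitochondrial share: 139 CPM below 10%, 124 CPM at 10 to 15%, 245 CPM at 15 to 20%, 487 CPM at 20 to 25%, 886 CPM at 25 to 30% and 1279 CPM at 30 to 40%, then 651 CPM above 40%. In HCT116 DMSO the difference was 1.34. Among cells of like depth it was 0.79 up to 2000 nuclear counts, 0.84 at 2000 to 3000, 0.90 at 3000 to 5000 and 2.08 at 5000 to 10000, so it kept its direction in all 4 strata.

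Other histone genes were higher too, though not all. H1F0, the gene for the replication-independent linker histone H1.0 and a known responder to histone deacetylase inhibitors, was at 1614 against 650 CPM, 1.31 on the log2 scale (0.29 in DMSO). H1F0 has 1 exon on chromosome 22, from 37805093 to 37807436. HIST1H1C, for linker histone H1.2, was at 1.02 and HIST1H2AM, on chromosome 6 from 27892757 to 27893149, at 1.42 (205 against 76.6 CPM). HIST1H2AH was at 2.12, HIST1H3C at 1.92 and HIST1H1B at 1.87. In contrast HIST1H4C, the HIST name with most counts in the library, was at -0.26 (671 against 806 CPM) and HIST1H2BK at -0.12. Of the 28 (of 83) HIST names, a list put together after their values were seen, 18 were higher against 11.5% of all genes, none lower and 26 above 0, with a median of 0.83. In DMSO 16 of 27 HIST names were higher, beside 3.39% of all genes there, with a median of 0.72. A shorter list of linker and polyadenylated histone genes shares members with the HIST names. It had 3 higher of 14 (of 15), 8 above 0 and a median of 0.13, the same as all genes. With thinned cells its median was -0.049, over the members with at least 500 counts there. Apart from H1F0, the replication-independent variants ranged from -0.45 for H2AFV and -0.41 for H3F3A, through -0.20 for H2AFZ and 0.03 for H3F3B, to 0.49 for H2AFJ. By depth, the median of the HIST names was -0.29 in the cells of up to 2000 nuclear counts and 0.36, 0.51 and 0.67 in the next 3 strata.

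Short non-coding RNAs formed another group with high ratios. RMRP, the RNA of the RNase MRP particle that processes ribosomal RNA, was at 250 against 57.6 CPM, 2.12 on the log2 scale (1.998 to 2.24). One cell carried much of that: it held 365 of the 932 RMRP counts (39.2%), and without the 10 cells of each set with most RMRP counts the value was 1.28. RPPH1, the RNA of RNase P, was at 1.40 (101 against 38.4 CPM). RN7SL2, of the signal recognition particle, was at 1.252, and RF00012.-.chr17, a copy of the U3 small nucleolar RNA, at 1.19. The spliceosomal RNAs were nearer to the other genes, with RNU2-63P at 0.65, RNU12 at 0.57, RNU5B-1 at 0.16 and RNU5D-1 at -0.15. Of the 11 (of 23) short RNAs, also listed after their values were seen, 5 were higher, beside 11.5% of all genes, and none lower, with a median of 0.57. These RNAs exist in near-identical copies, and the sources used here do not say how reads were shared among copies. MALAT1, a long RNA kept in the nucleus, was at 16618 against 12769 CPM, 0.38 on the log2 scale, and NEAT1, of the paraspeckles, at 0.02. None of the 11 (of 14) genes in a list of RNAs retained in the nucleus was called. The median of that list was 0.12, near that of all genes.

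**Figure D3:**
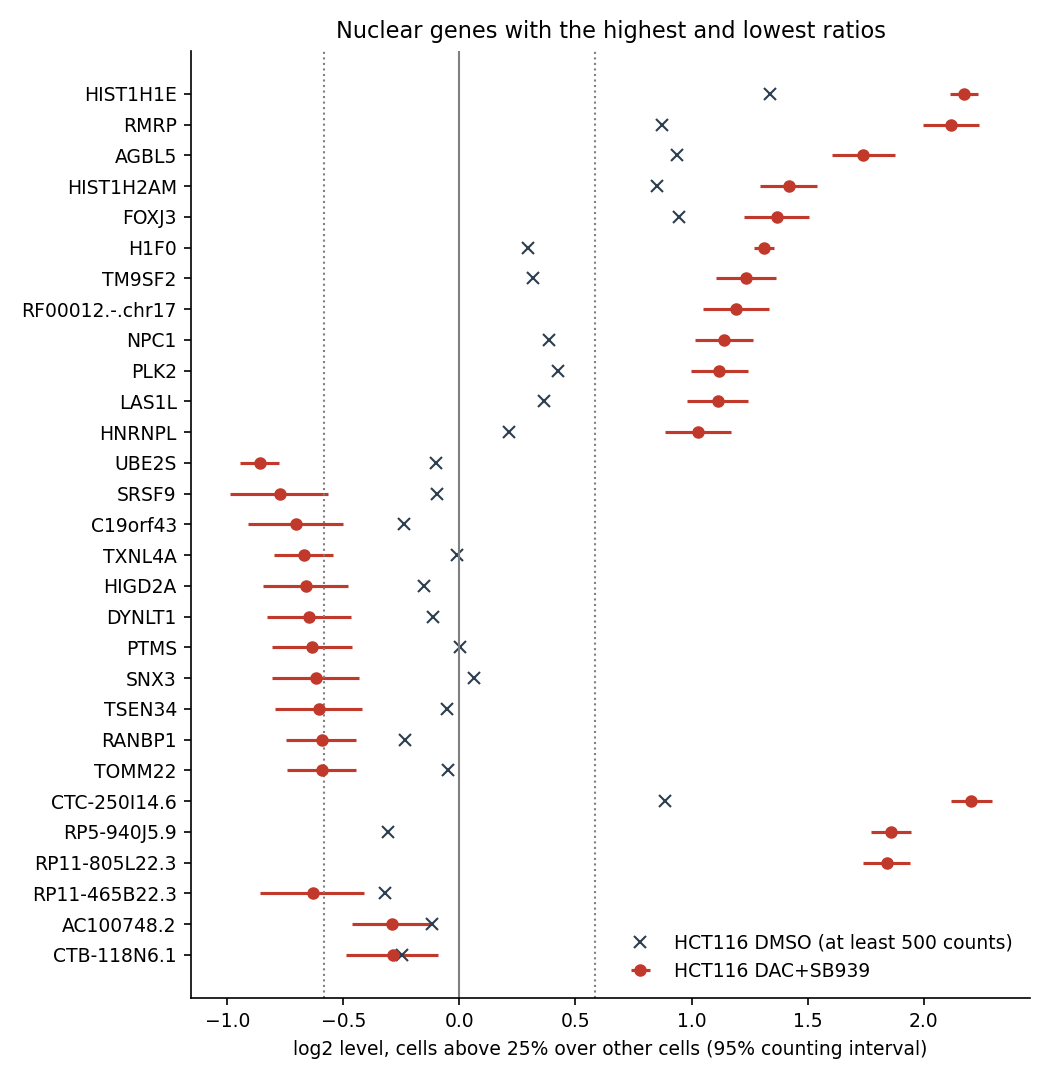
Log2 ratio of level, cells above 25% over other cells, for the 29 named genes in treated HCT116 (filled, with 95% counting intervals) and in HCT116 DMSO where both sets together had 500 counts. HIST1H1E (2.17) and RMRP (2.12) are the highest of the genes shown with ordinary names, and UBE2S (-0.86) the lowest. Without the cell of each set with most RMRP counts RMRP was at 1.44.

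The other genes with the highest ratios had varied functions. AGBL5, a tubulin deglutamylase on chromosome 2 from 27042364 to 27070622, was at 176 against 52.7 CPM, 1.74 on the log2 scale, but not among cells of like depth. It was at -0.50 among cells between 2019 and 4123 nuclear counts, and at -0.95, -0.48, -0.74 and 0.79 in the 4 strata. An antisense gene and an intronic one are annotated within AGBL5, and the sources used here do not say whether counting used the strand. FOXJ3, a forkhead transcription factor, was at 1.37 (150 against 58.3 CPM). TM9SF2, an endosomal membrane protein, was at 1.23. NPC1, the cholesterol exporter of lysosomes, was at 1.14 and LAS1L, which processes ribosomal RNA precursors, at 1.11. FOXJ3, TM9SF2, NPC1 and LAS1L were above 0 in every depth stratum, from 0.49 to 1.53. HNRNPL, a splicing regulator, was at 1.03, but at -0.02, 0.37, -0.42 and 0.28 by depth.

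The 3 clone-named transcripts with the highest ratios split in the same way. CTC-250I14.6 was at 472 against 102 CPM, 2.21 on the log2 scale, and RP5-940J5.9 at 440 against 121 CPM, 1.86. CTC-250I14.6 was at -0.25, -0.50, -0.05 and 1.08 by depth, and RP5-940J5.9 at -0.08, -0.53, -0.84 and 0.38. Their levels, like that of AGBL5, peaked at 25 to 30% mitochondrial share: 596 CPM for CTC-250I14.6, 605 for RP5-940J5.9 and 228 for AGBL5, against 124, 69.9 and 26.9 CPM above 40%. RP11-805L22.3, at 312 against 87.3 CPM (1.84), was higher at every depth, with 0.59, 1.14, 0.90 and 1.48. It had 0 counts in the HCT116 DMSO cells above 25% and 21 in the others of that library.

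The genes lower in the selected cells had smaller differences. UBE2S, the ubiquitin-conjugating enzyme that works with the anaphase-promoting complex, had the lowest ratio of the genes with at least 2000 counts named here. It was at 334 against 607 CPM, -0.86 on the log2 scale (-0.95 to -0.78). Its level went down across bins of mitochondrial share from 785 CPM below 10% to 306 CPM at 30 to 40%, and was 414 CPM above 40%. By depth its log2 value was -0.26, -0.50, -0.52 and -0.43. SRSF9, a splicing factor, was at -0.77, C19orf43 at -0.70 and TXNL4A, a component of the U5 snRNP, at -0.67. HIGD2A, an assembly factor of cytochrome c oxidase, was at -0.66, DYNLT1, a dynein light chain, at -0.65, PTMS at -0.63 and SNX3, a sorting nexin, at -0.62. TSEN34, a subunit of the tRNA splicing endonuclease, was at -0.61 and RANBP1, a partner of the GTPase Ran, at -0.59. TOMM22, a receptor of the mitochondrial import pore, was also at -0.59. Of these genes UBE2S, SRSF9, C19orf43 and RANBP1 were below 0 in all 4 depth strata. Up to 2000 nuclear counts TOMM22 was at 0.56, TXNL4A at 0.022 and PTMS at 0.0041. At 2000 to 3000 TSEN34 was at 0.54, SNX3 at 0.44, DYNLT1 at 0.26, TOMM22 at 0.090, HIGD2A at 0.044 and PTMS at 0.00099. The counting intervals of all these values above 0 spanned 0. From 3000 nuclear counts on all of the lower genes named so far were below 0. The clone names with the lowest ratios were RP11-465B22.3 at -0.63, and AC100748.2 and CTB-118N6.1, both at -0.29. RP11-465B22.3 was at 0.59 up to 2000 nuclear counts and AC100748.2 at 0.17 at 3000 to 5000, both with counting intervals that spanned 0. In DMSO cells the genes with ordinary names given here ranged from -0.24 for C19orf43 to 0.06 for SNX3, and UBE2S was at -0.10.

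The nuclear genes of the respiratory chain stood slightly below the typical gene. None of 33 (of 38) complex I genes was called, 7 were above 0, and their median was -0.20 (-0.13 in DMSO). NDUFA4 was at -0.31 (897 against 1109 CPM), NDUFS5 at -0.25 and NDUFB10 at -0.23, and NDUFB9 at 0.16. Of 34 (of 38) genes of complexes II to V, 1 was lower, COX8A at -0.59, and 9 were above 0, with a median of -0.23. Among these ATP5E was at -0.43 (1358 against 1826 CPM), UQCRQ at -0.32 and COX4I1 at -0.19. None of 27 (of 28) mitochondrial ribosomal proteins was called, with 4 above 0 and a median of -0.15. All 3 medians were at or below -0.15 where the median of all genes was 0.13. By depth the complex I median was -0.063, -0.040, -0.17 and -0.15, and that of complexes II to V -0.17, -0.12, -0.14 and -0.12.

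Genes that maintain and express the mitochondrial genome were mixed. Of 19 (of 24) such genes, 4 were higher, beside 11.5% of all genes: PPRC1, a coactivator of the PGC-1 family, at 0.98, LRPPRC, which stabilises mitochondrial messages, at 0.77 (201 against 118 CPM), ELAC2, which trims transfer RNA ends, at 0.72, and MTERF3 at 0.59. TOMM22 was the 1 lower. TFAM, the packaging and transcription factor of the genome, was at 0.03 and TOMM20 at -0.26. The list's median was 0.11. Of 14 (of 15) mitophagy and dynamics genes only MFN1, a mitofusin, was higher (0.87). Of 12 mitochondrial chaperones and proteases HSPE1 was lower (-0.63) while its partner HSPD1 was at 0.03. In that list 11 were above 0, with a median of 0.18. Of 16 (of 17) genes of the tricarboxylic acid cycle PDHB (0.82) and DLD (0.65), both of the pyruvate dehydrogenase complex, were higher, and the median was 0.25.

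Cytosolic ribosomal protein genes were lower by a small amount. None of 78 passed 1.5-fold, 9 were above 0, and the median was -0.16 (-0.11 in DMSO). RPLP1 was at -0.39 (11765 against 15376 CPM), RPS12 at -0.28, RPL13 at -0.12 and RPL28 at -0.02. Together they made up 242360 CPM in the selected cells and 273730 CPM in the others. The list's median stayed below 0 at every depth, between -0.27 and -0.10. Of 23 (of 24) translation factors only EIF4G1, the scaffold of the cap-binding complex, was higher (0.71), and TPT1 was at 0.35.

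Immediate early genes, which respond within minutes to growth signals and stress, had a high median. Of 13 (of 16) genes 5 were higher and 12 above 0, beside 11.5% and 63.6% of all genes, with a median of 0.54 (0.15 in DMSO). IER3 was at 928 against 496 CPM, 0.90 on the log2 scale. JUN, the core AP-1 subunit, was at 0.84, the RNA-decay factor ZFP36 at 0.80, the phosphatase DUSP1 at 0.67 and MYC at 0.66. EGR1 was at 0.57, IER2 at 0.46 and FOS at 0.45. The median was 0.02, 0.08, 0.51 and 0.05 in the 4 depth strata, where that of all genes was 0.13, 0.17, 0.075 and 0.073. It was thus below the typical gene in every stratum but that of 3000 to 5000 nuclear counts. Between 2019 and 4123 nuclear counts it was 0.44 over the members with at least 500 counts there. All genes with that many counts had a median of -0.058 in those cells.

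Chaperone lists had medians above that of all genes, while the ATF4, p53 and BCL2 lists lay close to it. The shares of members called in these lists are to be read against the 11.5% of all genes that were higher. Of 11 (of 12) cytosolic heat shock genes HSPA1B (0.66) and BAG3 (0.63) were higher, 9 were above 0 and the median was 0.48, with HSPA8 at 0.48, HSP90AB1 at 0.22 and HSP90AA1 at -0.25. Of 14 (of 15) chaperones and folding enzymes of the endoplasmic reticulum HYOU1 (0.77), HSPA5 (0.71, 599 against 366 CPM) and PDIA4 (0.59) were higher, 10 were above 0 and the median was 0.29, with CALR at -0.01. Between 2019 and 4123 nuclear counts these medians were 0.17 for the heat shock list and 0.24 for the endoplasmic reticulum list, over the members with at least 500 counts there. With as many cells selected by a share without mitochondrial ribosomal RNA they were -0.17 and -0.015. Of 11 (of 20) genes of the ATF4 response DDIT4 (0.85) and ATF3 (0.62) were higher with a list median of 0.08 (0.28 with the cut at 30% and 0.40 with thinned cells), and ATF4 itself was at 0.08. Of 13 (of 24) p53 targets PLK2 (1.12) and GADD45B (0.98) were higher, while CDKN1A, the cell-cycle inhibitor, was at -0.07 and PERP at -0.22, with a median of 0.09 (-0.13 with thinned cells). The ATF4 and p53 medians with thinned cells are over the members with at least 500 counts there. By depth the p53 median was 0.38, -0.16, 0.26 and 0.18, and PLK2 was at -0.14, 0.61, 0.91 and 0.52. HCT116 carries functional p53. None of 8 (of 16) BCL2 family genes was called, with PMAIP1 at 0.21, BIK at 0.10 and BAD at -0.31. None of 6 (of 18) genes of the apoptotic executioner list was called either, with cytochrome c (CYCS) at 0.03.

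Of the iron storage and metal-binding genes FTL and MT1H passed 1.5-fold lower. FTL, the ferritin light chain, was at 3442 against 5190 CPM, -0.59 on the log2 scale, and FTH1, the heavy chain, at -0.52 (1728 against 2480 CPM). FTL was the 1 lower gene of 19 (of 21) antioxidant and iron genes, and CAT, catalase, the 1 higher at 0.66. Of 7 (of 8) metallothionein genes MT1H was lower at -0.72, and 6 were below 0, with a median of -0.32. That median was -0.12 among cells between 2019 and 4123 nuclear counts, over members with at least 500 counts there, and -0.12 with the cut at 20%. MT2A was at 6833 against 9075 CPM (-0.41), MT1G at -0.36 and MT1E at -0.32, and MT1A at 0.05. In DMSO the ferritin and MT2A differences were smaller, with FTL at -0.14, FTH1 at -0.08 and MT2A at -0.03.

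Cell cycle genes did not separate the sets as a whole. Of 25 (of 32) S phase genes DTL (0.90) and CDC6 (0.60) were higher, beside 11.5% of all genes, and the median was 0.20. PCNA was at -0.09, and SLBP, the protein that binds the histone stem-loop, at 0.44 (192 against 142 CPM). Of 35 (of 38) genes of G2 and mitosis CCNB1 (0.80), MKI67 (0.68) and DLGAP5 (0.67) were higher and CENPA lower (-0.80), with a median of 0.17. CDC20 was at 0.58 and CKS2 at -0.30. By depth the S phase median was 0.13, 0.22, 0.056 and 0.20 and the G2 and mitosis median 0.44, 0.17, 0.048 and 0.15.

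Of 10 genes listed as the strongest responders to treatment in HCT116, a list made from these libraries, only AC095067.1 was higher (0.80), with CCK at -0.15 and a median of 0.28. Over the members with at least 500 counts there, that median was -0.037 between 2019 and 4123 nuclear counts and -0.0089 with thinned cells. The median of all genes with that many counts was -0.058 and -0.0063. Of 9 (of 11) genes known to respond to histone deacetylase inhibitors H1F0 and CLU, the secreted chaperone clusterin (0.71), were higher, with SAT1 at -0.09, TUBB3 at 0.19 and a median of -0.07. Between 2019 and 4123 nuclear counts the median was 0.36, over the members with at least 500 counts there. Of 11 (of 24) cancer-testis genes MAGEB1 was higher (1.07) and MAGEB2 was at 0.11. None of 2 (of 8) genes listed for a lower level with treatment was called, with UHRF1 at 0.43. Of 12 (of 35) interferon-stimulated genes PSMB9 was lower (-0.62) and the median was -0.12 (0.34, 0.043, -0.15 and -0.033 by depth), with B2M at -0.31, ISG15 at 0.26 and IRF7 at 0.00. None of 21 cytoskeletal genes and none of 18 (of 20) glycolytic genes was called, with ACTG1 at 0.12 and GAPDH at 0.11. The cytoskeletal median was -0.09, and 0.18 between 2019 and 4123 nuclear counts over members with at least 500 counts there. Of 23 (of 24) proteasome genes only PSMB2 was higher (0.68), and PSMA7 was at -0.38. Of 8 (of 13) hypoxia genes ADM was higher (0.72). Of 16 (of 20) surface and secretory genes CD44 was higher (0.93), and CD44 and MYC were the 2 higher of 4 (of 12) Wnt and colon genes. Of 8 (of 16) epithelial genes DSP, desmoplakin, was higher (0.65). MTRNR2L1, the 1 nuclear copy of mitochondrial sequence with at least 500 counts, was at 0.86.

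**Figure D4:**
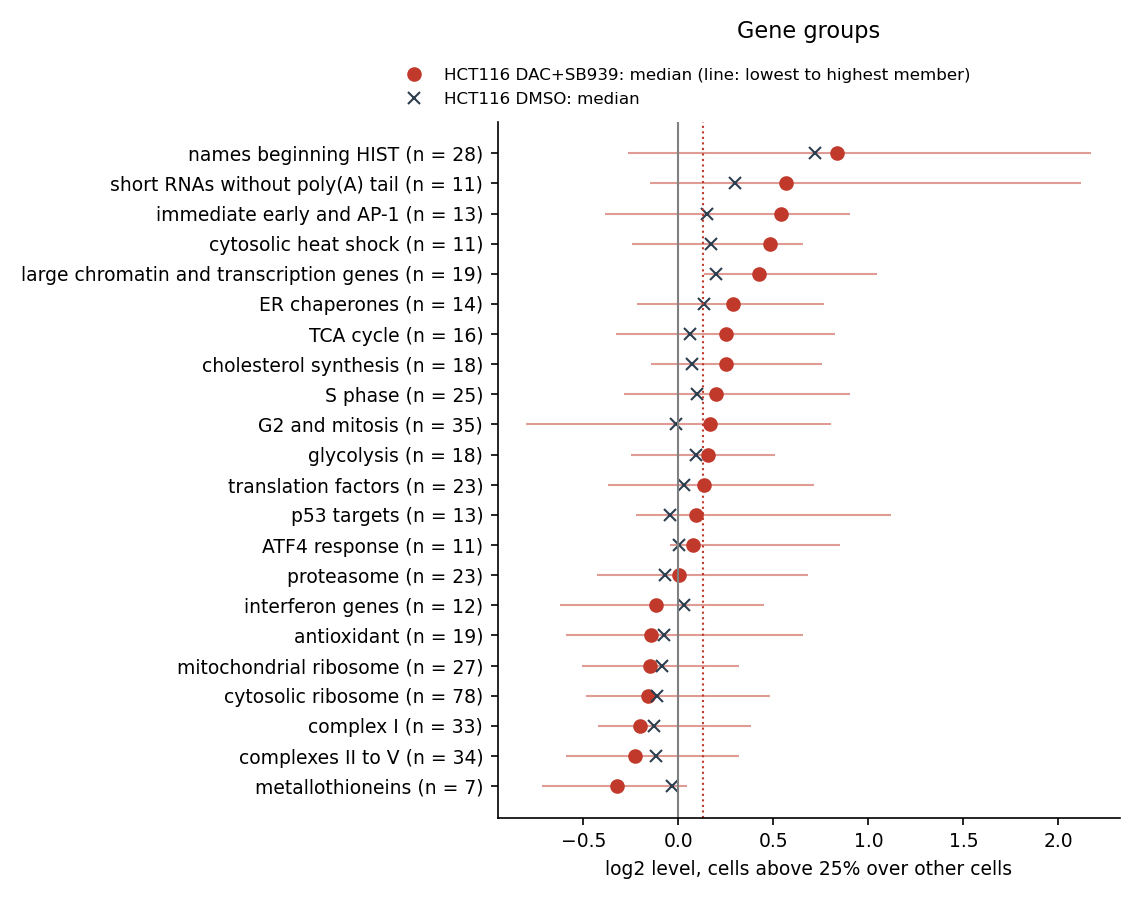
Median log2 ratio, cells above 25% over other cells, for 22 gene groups in treated HCT116 (circles; lines run from the lowest to the highest member) and HCT116 DMSO (crosses), with the median of all genes in the treated library (0.13) dotted. Genes named HIST (0.83) and short RNAs (0.57), both grouped after their values were seen, and immediate early genes (0.54) are at the top, and metallothioneins (-0.32) and complexes II to V (-0.23) at the bottom.

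Genes with long transcripts tended to be higher in the selected cells. Of the 6521 genes 6155 (94.4%) matched a gene of GENCODE v29 by symbol, and the Spearman correlation of the log2 value with the median transcript length was 0.474 in treated HCT116 and 0.494 in DMSO. This is a correlation across genes of the same cells, and genes are not independent replicates. In the fifth of genes with the shortest transcripts (71 to 1282 bases) the median was -0.16, 3.41% were higher and 2.68% lower. In the fifth with the longest (4171.5 to 205012 bases) the median was 0.35, 22.4% were higher and 0.0813% lower. Higher genes had a median transcript length of 3453 bases and lower genes of 1135.5 bases, against 2298 bases for all. All 19 (of 20) genes of a list of large chromatin and transcription proteins were above 0, with a median of 0.42, and 5 were higher. These were the splicing kinase CLK1 (1.04), the acetyltransferases EP300 (0.79) and CREBBP (0.70), the remodeller subunit ARID1A (0.65) and the methyltransferase KMT2C (0.60). Among cells of like depth the correlation was 0.12, 0.220, 0.265 and 0.350 from the shallowest stratum to the deepest, and the median of the large chromatin genes was between 0.31 and 0.60.

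TE transcripts took a larger part of the RNA in the selected cells. TEs are repeats left by mobile DNA. LTR12 is a family of long terminal repeats of an ancient retrovirus that inhibitors of DNA methylation and histone deacetylation are known to switch on, and Alu and L1 are short and long interspersed elements without such repeats. TE counts were 9.39% of nuclear gene and TE counts in the selected cells and 6.42% in the others, 1.46 times as much, or 0.55 on the log2 scale (0.54 to 0.55). In DMSO the same shares were 0.396 and 0.386%, a log2 difference of 0.04, and in treated H1299 4.19 and 3.402%, a difference of 0.30. Of 114 TE families with at least 500 counts 51 (44.7%) were at least 1.5-fold higher and 1 (0.877%), MLT1E3 at -0.95, lower.

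LTR12 repeats supplied most of the TE counts, at 5.36% of nuclear gene and TE counts in the selected cells and 3.71% in the others, 0.53 on the log2 scale. LTR12C, the family with most counts, was at 0.50 (43131 against 30495 in counts scaled to 1e+06 nuclear gene and TE counts), LTR12D at 0.39 and LTR12 at 0.93. Alu elements were at 2.13 and 1.55%, 0.46 on the log2 scale, with AluSp at 0.51, AluY and AluSg at 0.48 and AluSx at 0.40. L1 elements were scarcer at 0.390 and 0.135% but had the highest log2 value of the sets, 1.54. THE1B, a family of the THE1 repeats, was at 0.20. The TE share went up with mitochondrial share over all 7 bins, from 4.34% below 10% through 6.83% at 15 to 20% and 9.22% at 25 to 30% to 10.8% above 40%. In DMSO, LTR12 was at -0.13 and Alu at -0.17, and L1 at 0.32.

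The difference over all TEs was smaller among cells of like depth. The log2 value over all TEs was -0.03 up to 2000 nuclear counts, 0.10 at 2000 to 3000, 0.26 at 3000 to 5000 and 0.22 at 5000 to 10000. For LTR12 it was -0.01, 0.08, 0.35 and 0.26. For Alu it was -0.07, 0.47, 0.21 and 0.19, so at 2000 to 3000 it was no smaller than over all cells. For L1 it was -0.09, -0.14, -0.09 and 0.49, so the highest of the set values was below 0 in 3 of the 4 strata. The share of selected cells itself went down steeply with depth: 258 against 47 other cells up to 2000 nuclear counts, 382 against 182, 256 against 520, 177 against 1658, and 13 against 834 above 10000, where no value was taken. By the same strata, of the 753 genes 512 of the 707 with counts were above 0 up to 2000 nuclear counts and 667, 698 and 719 in the next 3. Past 1.5-fold were 332, 385, 304 and 269. The 753 genes were called with the cells of these strata included, so this is no independent check.

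**Figure D5:**
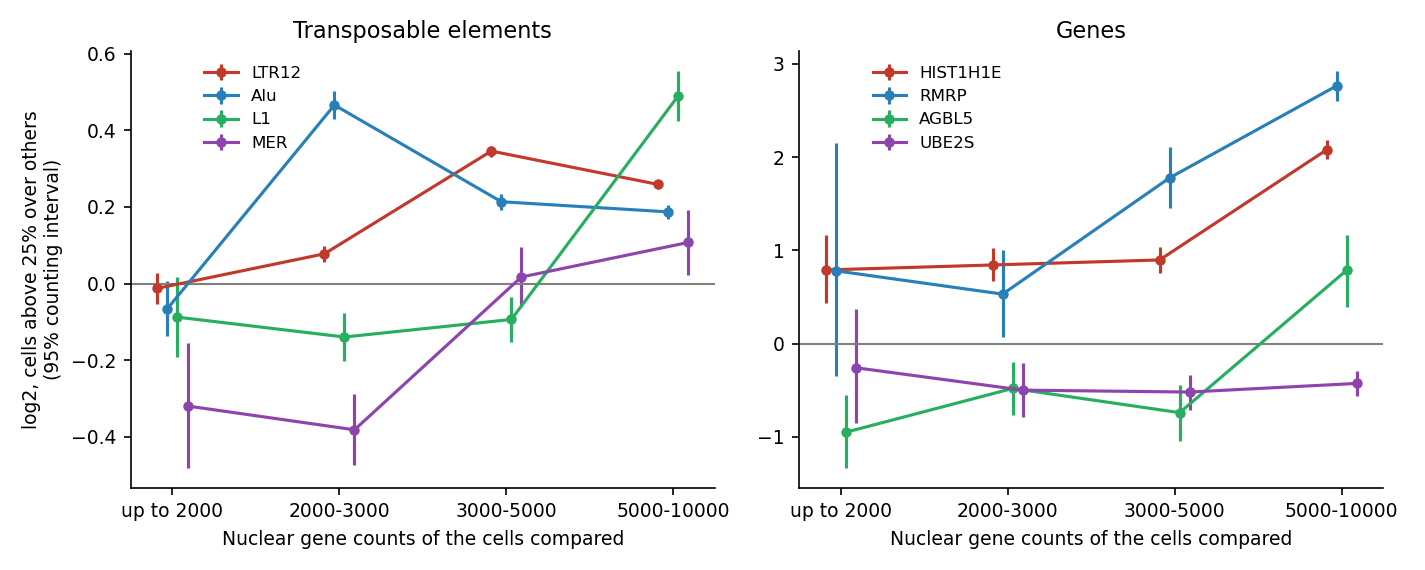
Log2 ratio, cells above 25% over other cells of treated HCT116, within 4 strata of nuclear gene counts per cell, for TE sets (left: LTR12, Alu, L1, MER) and genes (right: HIST1H1E, RMRP, AGBL5, UBE2S), with 95% counting intervals. HIST1H1E stays between 0.79 and 2.08 and UBE2S between -0.52 and -0.26, while AGBL5 and L1 are below 0 in the first 3 strata.

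The treated and the DMSO library can be set side by side because they share no cells. Over the 6101 genes with enough counts in both, the Spearman correlation of the log2 values across genes was 0.562. Of 649 genes higher in treated HCT116, 596 were above 0 in DMSO and 87 were past 1.5-fold there, with a DMSO median of 0.31. Of 55 lower genes none was past 1.5-fold lower in DMSO and 14 were above 0, with a median of -0.10. Over all 6101 genes the DMSO median was 0.06 and 153 were past 1.5-fold higher and 4 lower there.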

How the data were processed

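The deposited files are long tables of gene counts and TE counts per cell barcode, made by the authors; per the submitters' processing notes, CASAVA and STAR were used with GRCh38/hg38, without roles or order, and the sources used here do not say whether the counts are of molecular identifiers. The barcode's suffix gave the library. Numbered features of a gene were summed, and names joined by the authors (5.69% of nuclear counts in the selected cells, 5.97% in the others) stayed out of gene values. Mitochondrial genes were the 40 names beginning MT-. Library totals are given in the report, and precision is set by the counts behind each ratio.

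Counts were summed over the selected and the other cells and divided by nuclear gene counts (for TEs, nuclear gene plus TE counts), and ratios have exact conditional binomial intervals. No test was run, as there is 1 library per condition. The computation was tested on simulated data that held counting error only, so that test does not speak to spread between cells. The text names genes with at least 2000 counts and the 12 highest and 12 lowest ratios, the 3 highest and lowest clone names, and the members of the lists with most counts or past 1.5-fold; some further members, HIST genes and short RNAs were picked after their values were seen. One of the 12 lowest genes is not reported here, and 1 list is not described in the text. The cells, lists and tests were chosen with earlier results of these data known. No doublets were removed. Alternatives covered the cut, the denominator, scaling, filters, depth, thinning and concentration in few cells. Python 3.11.15, numpy 2.4.6, scipy 1.17.1, pandas 2.3.3 and matplotlib 3.10.9 were used.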

Additional observations from a re-analysis of the deposited data

Results flagged for a closer look

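Between the treated and the DMSO library of HCT116, 4 contrasts of cells above 25% with other cells pointed in opposite directions over all cells. Values among cells of like depth are given beside each. With 1 library each, none of these differences was tested.

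Median mitochondrial counts per cell in the selected cells were 0.856 times those of the other cells under treatment and 2.12 times under DMSO. At 5000 to 10000 nuclear counts they were higher in both libraries, with 2920 against 1575 under treatment and 3227 against 1608 under DMSO. A cut on the share makes this the order among cells of like depth. The log2 value of the MT-ND6 share of mitochondrial counts was 0.66 under treatment and -1.12 under DMSO. At 5000 to 10000 nuclear counts the share was lower in the selected cells of both libraries, with 0.622 against 0.768% under treatment and 0.682 against 0.777% under DMSO. That share is of a mitochondrial total that the cut made higher among such cells. The LTR12 level was at 0.53 under treatment and -0.13 under DMSO, and the Alu level at 0.46 and -0.17. At 5000 to 10000 nuclear counts LTR12 was at 0.26 under treatment and 0.077 under DMSO, and Alu at 0.19 and 0.16. At 3000 to 5000, with 23 selected DMSO cells, the directions stayed opposite, with LTR12 at 0.35 and -1.32 and Alu at 0.21 and -0.45. LTR12 and Alu transcripts are a far smaller part of the RNA without treatment.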

How the results depend on the processing

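Of 6521 genes, higher and lower ones numbered 442 and 21 with a cut at 20% and 100 and 2 at 2-fold. Scaled by the median of ratios they numbered 406 and 183 of 6521. Other settings changed the number of genes compared. At a minimum of 100 counts the higher and lower genes were 2019 and 289 of 12311, and at 2000 counts 108 and 15 of 1911. At 1 count they were 9736 and 10377 of 34216. Between the quartiles of depth they were 20 and 2 of 692, and with thinned cells 165 and 13 of 2011. With thinned cells 752 of the 753 higher genes were above 0 and 602 past 1.5-fold, in cells that also served to call them. Lower genes numbered 173 with a cut at 30% and 104 without ribosomal proteins in the denominator. The TE log2 value was 0.49 with a cut at 20%, 0.53 at 30%, 0.69 with a share over gene counts alone (31.0% of cells selected), 0.20 between the quartiles of depth, 0.54 without the 5% deepest cells, 0.56 without cells below 3300 counts and 0.26 with mitochondrial counts in the denominator.

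The following were chosen after seeing the data. Selecting 1086 cells by a share without ribosomal RNA kept 625 cells and gave 280 higher and 151 lower genes, a TE value of 0.59, a ratio of median nuclear counts of 0.460, and list medians of -0.015 for endoplasmic reticulum chaperones and -0.17 for heat shock genes. By depth the TE value was -0.030, 0.10, 0.26 and 0.22.

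Among genes past 1.5-fold and list medians past 0.2 on the log2 scale, the direction turned in some settings. Between the quartiles of depth it turned for AGBL5 (-0.50), HNRNPL (-0.076), CTC-250I14.6 (-0.18) and RP5-940J5.9 (-0.47). The median of treatment responders turned as well (-0.037, and -0.0089 with thinned cells). The median of all genes with at least 500 counts was -0.058 and -0.0063 in these 2 settings. Up to 2000 nuclear counts the direction turned for AGBL5 (-0.95), PLK2 (-0.14), HNRNPL (-0.021), TXNL4A (0.022), PTMS (0.0041) and TOMM22 (0.56). In those cells it turned too for CTC-250I14.6 (-0.25), RP5-940J5.9 (-0.080), RP11-465B22.3 (0.59) and the median of the HIST names (-0.29). Of these genes only AGBL5 had a counting interval that did not span 0. At 2000 to 3000 it turned for AGBL5 (-0.48), HIGD2A (0.044), DYNLT1 (0.26), PTMS (0.00099), SNX3 (0.44), TSEN34 (0.54) and TOMM22 (0.090). In that stratum it turned too for CTC-250I14.6 (-0.50), RP5-940J5.9 (-0.53) and the treatment responders. The counting intervals of AGBL5, CTC-250I14.6 and RP5-940J5.9 did not span 0, and those of the other genes did. The median of the responders was -0.0059 over members with at least 500 counts there. The 302 genes with that many counts had a median of -0.12. At 3000 to 5000 it turned for AGBL5 (-0.74), HNRNPL (-0.42), CTC-250I14.6 (-0.052), RP5-940J5.9 (-0.84) and the treatment responders. Of these genes only CTC-250I14.6 had a counting interval that spanned 0. The median of the responders was -0.089 over members with at least 500 counts there. The 697 genes with that many counts had a median of -0.069. The cause was not tested. No paired analysis was possible because each condition has 1 library. Depth limits the shallow strata, where the first holds 47 other cells.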
